A study of Arabidopsis thaliana with 24 samples.

Results

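Late embryogenesis abundant (LEA) proteins outside the dehydrin family were followed through 6 Arabidopsis thaliana genes: LEA4-5 (AT5G06760), LEA14 (AT1G01470), LEA7 (AT1G52690), the group 3 gene AT3G15670, EM1 (AT3G51810) and EM6 (AT2G40170, for which the RefSeq symbol is GEA6). The genes were chosen by name, as representatives of the LEA groups, from the 37899 annotated nuclear genes. Earlier results of these data were known when they were chosen. Transcription start sites were mapped by CAGE, a method that traps RNA by its cap and sequences a tag from the end that carries it. The material was aerial parts of wild-type seedlings, 2 weeks old, of 4 natural accessions, namely Shigu-2, Vash-1, Kly-1 and Altenb-2. Per the labels, 3 libraries of each accession came from control plants, kept at 22 °C in continuous light of 40 µE per square metre and second. The other 3 came from plants moved for 24 h to combined high light and cold, at 140 µE and 4 °C, which makes 24 libraries in 8 groups of 3.

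Start site clusters come in the deposited table under 4 series of numbers, and each series was taken as the set of the accession that shares its initial. It has no column for treatment, library or replicate, so each gene had 1 pooled value per accession and no response to the treatment can be had from it. A difference between sets cannot be told apart from a difference in how many control and treated tags were pooled. No replicate error exists either, and every interval below is a 95% interval that covers counting error only.

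LEA proteins are small, mostly very hydrophilic proteins that accumulate late in seed maturation, as the embryo dries. Many are unstructured in water and are thought to protect other proteins and membranes from drying and freezing. Several are also made in leaves under drought, salt, cold or abscisic acid (ABA), the plant hormone of water stress. The 6 genes stand for different groups of the family. EM1 and EM6 are group 1 proteins known from dry seeds, LEA7 and AT3G15670 are group 3 proteins, LEA4-5 belongs to group 4, and LEA14 is an atypical member with a stable fold. ABA-responsive promoters often carry ACGTG, the core of the element that bZIP factors bind, and cold-responsive ones CCGAC, the core that CBF and DREB factors bind.

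The main start site is the base at which a gene's tags begin most often. The levels below count tags over the whole gene and its upstream stretch, not only those that begin at that base. The 161 bases that end at each gene's main start site are shown first. Each is the TAIR10.1 reference on the gene's strand, read 5′ to 3′. Capitals mark ACGTG or its reverse complement, CCGAC or its reverse complement, TATA between 40 and 21 bases before the start, and the start base itself, which is the last letter. The accessions' own sequences were not used here.
LEA4-5 (chr5:2090388-2090548, minus strand): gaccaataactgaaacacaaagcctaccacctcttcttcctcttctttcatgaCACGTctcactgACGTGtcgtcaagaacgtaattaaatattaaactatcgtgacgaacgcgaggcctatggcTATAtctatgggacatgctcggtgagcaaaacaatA
LEA14 (chr1:172882-173042, minus strand): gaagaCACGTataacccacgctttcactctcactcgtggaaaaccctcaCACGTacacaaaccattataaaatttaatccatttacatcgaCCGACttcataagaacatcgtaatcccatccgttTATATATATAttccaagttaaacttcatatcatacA
LEA7 (chr1:19619590-19619750, plus strand): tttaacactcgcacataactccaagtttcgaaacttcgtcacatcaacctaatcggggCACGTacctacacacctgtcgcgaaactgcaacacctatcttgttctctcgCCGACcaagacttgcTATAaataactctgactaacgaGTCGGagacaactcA
AT3G15670 (chr3:5310988-5311148, minus strand): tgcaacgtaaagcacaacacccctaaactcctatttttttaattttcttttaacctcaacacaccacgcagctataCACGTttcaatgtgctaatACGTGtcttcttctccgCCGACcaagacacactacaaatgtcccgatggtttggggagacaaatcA
EM1 (chr3:19214588-19214748, plus strand): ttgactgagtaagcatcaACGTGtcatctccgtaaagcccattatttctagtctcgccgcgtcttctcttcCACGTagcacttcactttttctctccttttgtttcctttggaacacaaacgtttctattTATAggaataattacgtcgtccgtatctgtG
EM6 (chr2:16780258-16780418, minus strand): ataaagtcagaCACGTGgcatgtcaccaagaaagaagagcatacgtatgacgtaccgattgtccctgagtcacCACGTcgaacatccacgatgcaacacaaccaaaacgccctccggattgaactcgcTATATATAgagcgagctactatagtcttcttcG

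In the 250 bases before the main start, ACGTG was found on either strand in 6 of the 6 genes and in 27.8% of 14773 gene promoters of the same length. Each of the 6 held at least 2 matches, as did 12.9% of all promoters, where a CACGTG counts on both strands. CACGTG, the G-box, occurred in LEA4-5, LEA7 and EM6, and in 1495 of the 14773 promoters. In LEA4-5 and LEA7 it lay at −169 and −244, upstream of the stretch printed above, as does the CCGAC of LEA4-5 at −241. CCGAC occurred in 4 of the 6, namely LEA4-5, LEA14, LEA7 and AT3G15670, and in 16.3% of all promoters. ACGTG and CCGAC occurred together in 5.22% of all promoters. Neither group 1 gene had CCGAC in this window. CATGCA, the core of the RY element of seed promoters, was in none of the 6 and in 5.42% of all promoters. TATA lay between −40 and −21 in 5 of the 6, the exception being AT3G15670, against 33.6% of all promoters. The group 3 genes LEA7 and AT3G15670 share the 13-base run cgCCGACcaagac, which begins at −53 in LEA7 and at −50 in AT3G15670. No other pair of the 6 promoters shared a run of 12 bases or more in the 250-base window. A match of letters is a description of the reference and does not show that a factor binds there.

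Levels are given as CPM, a gene's tags per 1000000 tags of the set outside the rRNA gene repeats. CAGE counts 1 tag per captured RNA end whatever the length of the RNA, so levels of different genes are set side by side on this scale. Tags were summed over clusters on the gene's strand that peak between 500 bp upstream of its start and its end. The sets held 37230794 such tags outside the repeats in Shigu-2, 22462179 in Altenb-2, 29311532 in Kly-1 and 24535666 in Vash-1. Clusters under 5 tags are not listed, so the smallest visible level ranged from 0.134 CPM in Shigu-2 to 0.223 CPM in Altenb-2. In these bulk samples, fewer cells of a type and less RNA per cell cannot be told apart. The difference of a set is its log2(CPM + 0.5) minus the mean of the other 3 sets, and it is called at 2-fold for genes with 5 CPM or more in at least 1 set. This scale understates differences of low genes, and the differences of the 4 sets are not independent of each other.

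**Figure D1:**
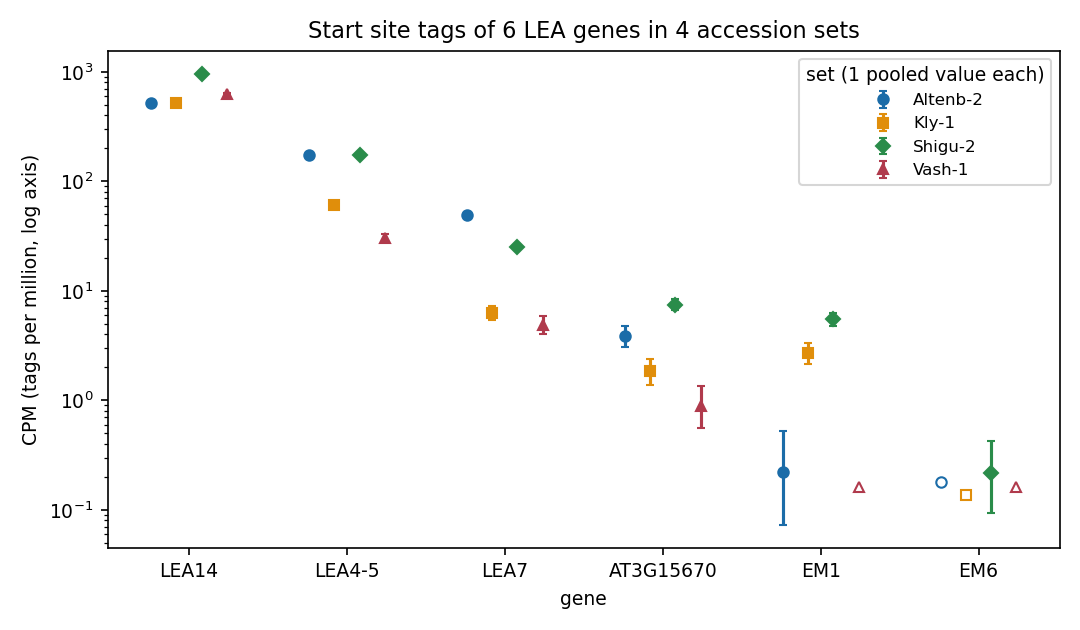
Level of each gene in each set, in CPM on a log axis; symbols are the single pooled values and bars their 95% Poisson counting intervals. Open symbols mark a gene with no listed cluster, drawn at the level of 4 tags. LEA14 lies between 519 and 959 CPM, and EM6 has a listed cluster in Shigu-2 only.

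LEA14 was by far the most abundant of the 6 genes, and of the 5 with 5 CPM or more in a set it differed least between the sets. Its product is the atypical LEA protein with a folded, rather than unstructured, domain. It had 35717 tags in Shigu-2 (959 CPM), 15367 in Kly-1 (524 CPM), 11648 in Altenb-2 (519 CPM) and 15363 in Vash-1 (626 CPM). Shigu-2 stood above the other 3 sets, and Altenb-2 and Kly-1 were the lowest. From highest to lowest, Shigu-2 over Altenb-2 was 1.85 (1.81 to 1.89). Shigu-2 over Vash-1 was 1.53 and Vash-1 over Kly-1 was 1.19, both with intervals above equality, while Kly-1 over Altenb-2 was 1.01 (0.987 to 1.04), an interval that includes equality. No difference of LEA14 reached 2-fold, the closest being 0.79 on the log2 scale in Shigu-2, which became a call at 1.06 when the rRNA repeats were kept in the totals. LEA14 supplied between 69.4% (Altenb-2) and 94.5% (Vash-1) of the CPM summed over the 6 genes. Among 41 LEA genes outside the dehydrins it ranked second in every set, after COR15A. Among all genes it ranked 117 in Shigu-2, 230 in Altenb-2, 233 in Kly-1 and 186 in Vash-1.

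LEA4-5, the group 4 gene known for its role in drought tolerance, was high in Altenb-2 and Shigu-2 and low in Vash-1. It had 3942 tags in Altenb-2 and 6525 in Shigu-2, which came to 175 CPM in both. The interval of the ratio of Altenb-2 to Shigu-2, 0.962 to 1.04, includes equality, so these neighbours were not distinguishable. Kly-1 had 1788 tags (61.0 CPM) and Vash-1 had 753 (30.7 CPM). Each of the other steps was larger than counting error, Shigu-2 over Kly-1 at 2.87 (2.73 to 3.03) and Kly-1 over Vash-1 at 1.99 (1.82 to 2.17). From highest to lowest the ratio was 5.72 (5.29 to 6.19). The log2 difference was 1.34 in both Altenb-2 and Shigu-2 and −1.99 in Vash-1, all past 2-fold, and −0.68 in Kly-1.

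LEA7, a group 3 protein that is unstructured in water and becomes helical on drying, showed a steeper form of this order. It had 933 tags in Shigu-2 (25.1 CPM), 184 in Kly-1 (6.28 CPM), 1102 in Altenb-2 (49.1 CPM) and 120 in Vash-1 (4.89 CPM). Altenb-2 and Shigu-2 were again the high sets, but here Altenb-2 exceeded Shigu-2, with a ratio of 1.96 (1.79 to 2.14). Kly-1 was only slightly above Vash-1, at 1.28 (1.01 to 1.63). The ratio of Altenb-2 to Vash-1 was 10.0 (8.30 to 12.2). Each of the 4 sets was past 2-fold, with log2 differences of 2.34 in Altenb-2, 1.07 in Shigu-2, −1.49 in Kly-1 and −1.93 in Vash-1. The call in Shigu-2 was lost, at 0.92, when sets were scaled by the median of ratios over genes.

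AT3G15670, the other group 3 gene, was rarer than LEA7 in every set. It had 279 tags in Shigu-2 (7.49 CPM), 54 in Kly-1 (1.84 CPM), 86 in Altenb-2 (3.83 CPM) and 22 in Vash-1 (0.897 CPM). Shigu-2 was the highest set and Vash-1 the lowest, with a ratio of 8.36 (5.41 to 13.6). Altenb-2 lay below Shigu-2, which exceeded it 1.96-fold (1.53 to 2.52), the opposite of the order in LEA7. The log2 differences past 2-fold were 1.72 in Shigu-2 and −1.63 in Vash-1, while Altenb-2 stood at 0.54 and Kly-1 at −0.64. Only Shigu-2 reached 5 CPM, so the gene entered the comparison through the set in which it was high, and both calls were lost when the rRNA repeats were kept in the totals.

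The group 1 genes were close to the limit of the table. EM1, a seed protein with a repeated hydrophilic motif, had 204 tags in Shigu-2 (5.48 CPM), 79 in Kly-1 (2.13 to 3.36 CPM), 5 in Altenb-2 (0.223 CPM) and no listed cluster in Vash-1. Kly-1 and Shigu-2 were the high sets, so Altenb-2 and Kly-1 had changed places relative to LEA4-5 and LEA7. Shigu-2 exceeded Kly-1 by 2.03 (1.56 to 2.67), and Kly-1 exceeded Altenb-2 by 12.1 (4.98 to 38.3). On the log2(CPM + 0.5) scale the 4 sets were past 2-fold, at 2.51 in Shigu-2, 1.31 in Kly-1, −1.55 in Altenb-2 and −2.26 in Vash-1. The last value rests on an unlisted cluster and on the constant of 0.5, so no fold is given. The call in Kly-1 was lost, at 0.89, with a pseudocount of 1. All 4 calls were lost when only tags at the peak position were counted or when the rRNA repeats were kept, since EM1 then stayed under 5 CPM in every set. As with AT3G15670, only Shigu-2 reached 5 CPM. EM6, which is needed for normal water loss of maturing seeds, had 8 tags in Shigu-2 (0.215 CPM) and no listed cluster in the other 3 sets. It did not pass the 5 CPM filter, and 8 tags in the deepest set do not distinguish it from the other sets.

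Altogether 13 of the 24 pairs of gene and set were past 2-fold, in 4 of the 6 genes. Only 5 of the 6 passed the 5 CPM filter, so EM6 could not be called, whereas all genes compared below passed it. The share of all genes with a call in any set is not given here. In Shigu-2, 4 of the 6 genes were higher, where 3.76% of the 14774 genes with 5 CPM or more were. In Vash-1, 4 of the 6 were lower, against 4.24% of all genes. In Altenb-2, 2 were higher, against 2.74%, and 1 was lower, against 4.55%. In Kly-1, 1 was higher, against 3.91%, and 1 was lower, against 2.75%. AT3G15670 and EM1 were in the comparison only through Shigu-2, so their calls there follow in part from the filter. The 6 genes were also chosen with earlier results of these data known, so these counts are descriptions. The span from the highest to the lowest set on the log2(CPM + 0.5) scale had a median of 0.62 over all genes. It was wider than in 95.2% of genes for LEA4-5, 96.9% for LEA7, 95.3% for AT3G15670, 97.6% for EM1 and 71.2% for LEA14. For AT3G15670 and EM1, which passed the filter only through their highest set, the filter itself favours a wide span. The span of EM1 also ends at Vash-1, where no cluster is listed, and so rests on the constant of 0.5.

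**Figure D2:**
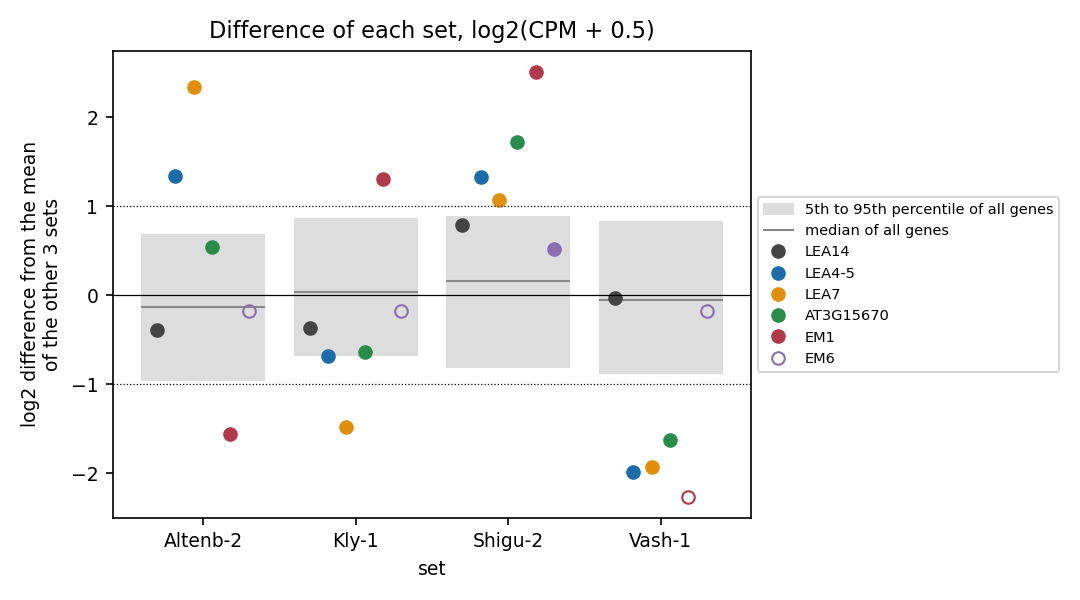
Log2 difference of each set from the mean of the other 3 sets for the 6 genes (points, 1 colour per gene, open where the gene has no listed cluster in that set). Grey boxes span the 5th to 95th percentile of 14774 genes, grey lines their median, and dotted lines mark 2-fold. LEA14 stays inside the dotted lines in every set, and LEA4-5, LEA7, AT3G15670 and EM1 lie below the lower line in Vash-1.

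The start sites themselves were stable for the abundant genes. LEA4-5 started most often at chr5:2090388 in all 4 sets, with 48.0 to 52.9% of its tags on that base, 42 bp inside the annotated gene start and 75 bp before the start codon. LEA14 started most often at chr1:172882 in all 4, with 47.6 to 49.4% of its tags there, 66 bp inside the gene start and 56 bp before the start codon. These are the 2 genes of the 6 with 5 CPM or more in all 4 sets. Of all 12062 such genes, 65.1% had the same main start in all 4, so the count of 2 of 2 is not particular to them. The share of tags at the main start of both stayed between 47.6 and 52.9%, although the level of LEA4-5 varied 5.72-fold. LEA4-5 had a minor start 2 bp inside its gene start, at chr5:2090428, whose whole cluster held 2.26 to 3.23% of the gene's tags. LEA14 had a like minor start 5 bp inside the gene start, at chr1:172943, whose cluster had 236 tags in Shigu-2, 169 in Kly-1 and 119 in Vash-1. In Altenb-2 that position is the edge of 1 wide cluster of 166 bp and cannot be counted apart.

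**Figure D3:**
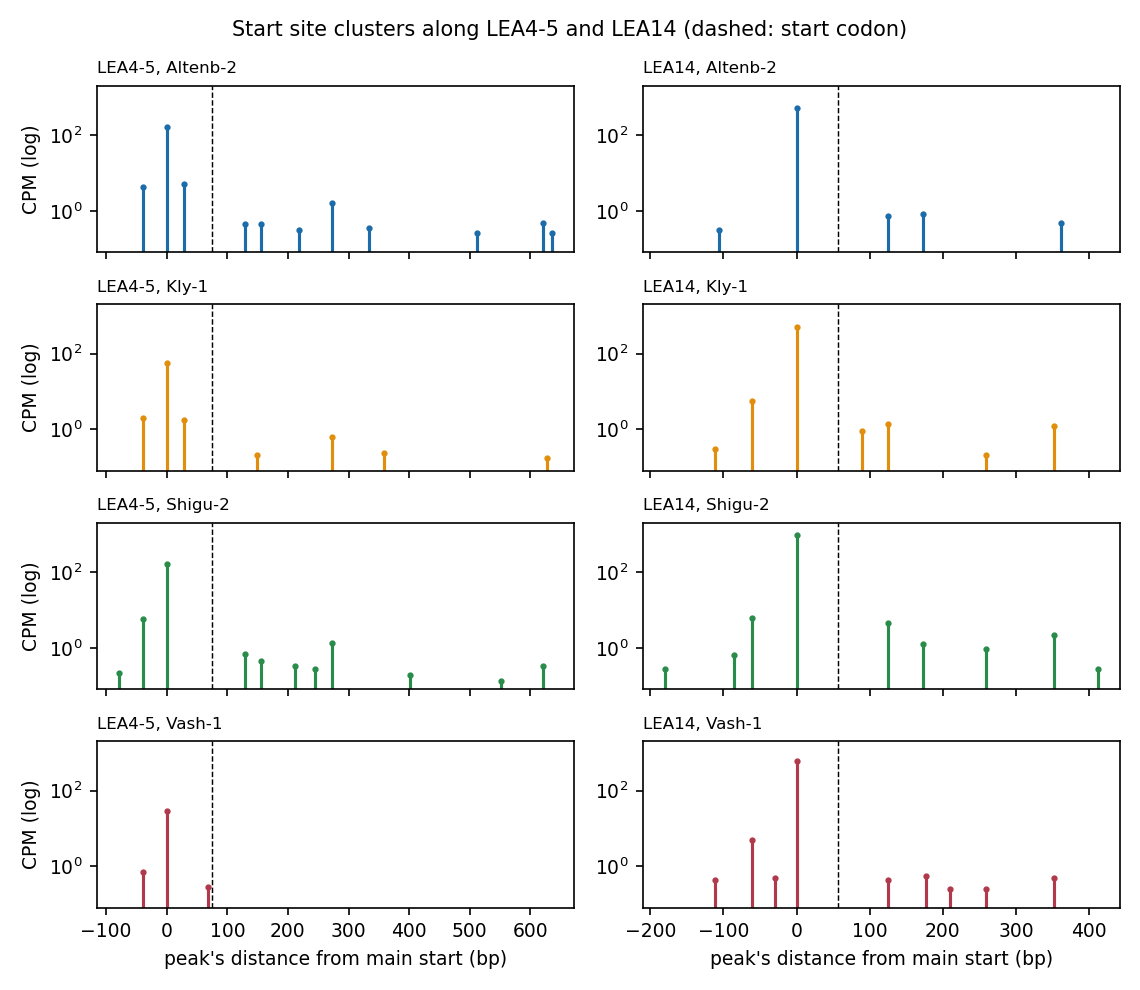
Start site clusters of LEA4-5 (left) and LEA14 (right) in each set; each line stands at the distance of the cluster's peak from the main start, in bp along the gene, and its top gives the cluster's CPM on a log axis. The dashed line is the start codon. The cluster at the main start is the tallest in every panel, and LEA14 in Altenb-2 lacks the separate minor cluster because it lies within the wide main cluster.

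Cluster widths varied between the sets more than the peaks did. The main cluster of LEA4-5 was 99 bp wide in Shigu-2, its deepest set, 29 in Altenb-2, 28 in Kly-1 and 41 in Vash-1, beside a median of 72.5 bp over all genes compared. That of LEA14 was 59 bp wide in Shigu-2, 166 in Altenb-2, 81 in Kly-1 and 114 in Vash-1. These widths depend on whether neighbouring clusters were merged. The wide cluster of LEA4-5 in Shigu-2 covers chr5:2090359, where Altenb-2 and Kly-1 list a separate cluster of 118 and 53 tags. The widest of LEA14, in Altenb-2, takes in its minor start, so the 2 genes are not ranked by width. At the peak lay 52.5% of the main cluster's tags in LEA4-5 and 49.0% in LEA14, against a median of 37.9% over all genes. Some clusters peaked past the start codon, and their median share of a gene's tags over all genes was 0.533% in Shigu-2 and 0 in the other 3 sets. A cluster counted whole by its peak, so leader clusters that ran past the codon added nothing to these shares. In LEA4-5, where leader clusters did so in every set, clusters peaking past the codon held 138 tags in Shigu-2 (2.11%), 94 in Altenb-2 (2.38%) and 36 in Kly-1 (2.01%). None was listed in Vash-1. The 3 listed shares were each above those of at least 71.1% of genes in the same set. In LEA14 they made up 0.319% (Vash-1) to 0.966% (Shigu-2) of the tags. In LEA7 they were 17 tags in Altenb-2 (1.54%), 11 in Shigu-2 (1.18%), 5 in Vash-1 (4.17%, with an interval of 1.37 to 9.46%) and none listed in Kly-1.

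The group 3 genes started more sharply than LEA4-5 and LEA14, except in Vash-1. LEA7 had its main start at chr1:19619750 in all 4 sets, 26 bp inside the gene start. That base held 80.2% of its tags in Shigu-2 (77.5 to 82.7%), 82.2% in Altenb-2 (79.8 to 84.4%) and 85.9% in Kly-1 (80.0 to 90.6%), but 55.0% in Vash-1 (45.7 to 64.1%, exact binomial intervals). The Vash-1 interval lies below the other 3. AT3G15670 started most often at its annotated gene start, chr3:5310988, in Shigu-2, Kly-1 and Altenb-2, with 83.5, 77.8 and 69.8% of its tags. In Vash-1 its leading base was chr3:5310986, with 10 of 22 tags, a number too small to show a shift. Whether the reference differs from Vash-1 at these starts was not tested. EM1 started most often at chr3:19214748 in each of the 3 sets that list it, 26 bp inside the gene start. That base held 78.5% of its tags in Kly-1, 64.2% in Shigu-2 and 3 of 5 tags in Altenb-2. Sharp starts were thus not confined to group 3. EM6 started at chr2:16780258, 110 bp inside, with 7 of its 8 tags. The main start lay on a pyrimidine-purine step in all 6 genes: CA in LEA14, LEA7 and AT3G15670, TA in LEA4-5, TG in EM1 and CG in EM6. Over all clusters, 70.8% of peaks lay on such a step. No 25-base word of the first 100 bases of the 6 transcripts occurred a second time on the 5 reference chromosomes.

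**Figure D4:**
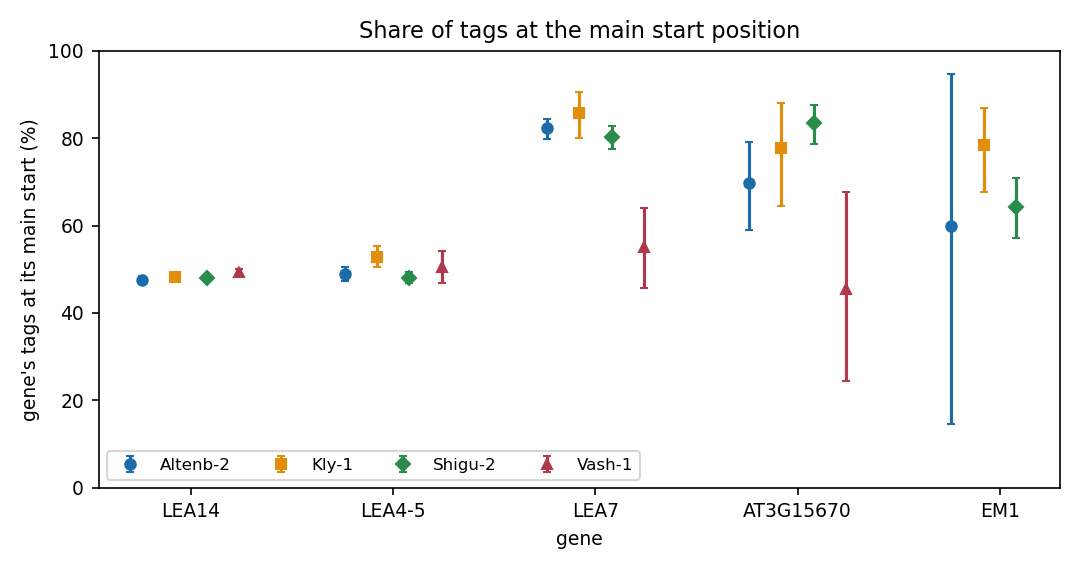
Share of each gene's tags that begin at its main start in each set, in percent, with exact 95% binomial intervals; the main start is that of the set itself. LEA14 and LEA4-5 lie between 47.6 and 52.9% in every set, and LEA7 in Vash-1 (55.0%) lies below its other 3 sets.

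The other LEA genes outside the dehydrins, 35 by locus, were read in the same way. A listed cluster was found for 23 of them, and 10 reached 5 CPM. Of these, 2 were higher and 2 lower in Altenb-2, none higher and 1 lower in Kly-1, 4 higher and none lower in Shigu-2, and none higher and 2 lower in Vash-1. The median log2 difference of the 10 was 0.88 in Shigu-2, −0.58 in Altenb-2, 0.24 in Kly-1 and −0.51 in Vash-1, beside 0.16, −0.13, 0.04 and −0.05 over all genes. AT3G02480 and AT3G17520 had the order of LEA7. AT3G02480 had 168 CPM in Shigu-2, 252 in Altenb-2, 42.3 in Kly-1 and 12.4 in Vash-1. AT3G17520 had 22.4, 105, 3.04 and 1.39 CPM in the same order of sets, the widest span of the 10. LEA3 (AT1G02820) was called higher in Shigu-2 and lower in Altenb-2, with 827 CPM in Shigu-2 against 146 in Kly-1, 104 in Altenb-2 and 164 in Vash-1. DI21, named for its induction by drought, was also past 2-fold higher in Shigu-2, with 220 CPM against 80.3, 141 and 102. AT2G46140, a gene of the same LEA class as LEA14, was past 2-fold lower in Altenb-2, with 1.56 CPM against 5.43 in Shigu-2, 6.45 in Kly-1 and 5.58 in Vash-1. The most abundant on average over the sets were COR15A, a chloroplast protein of cold acclimation, SAG21, a LEA protein also made in senescing leaves, and LEA3. In every set but Shigu-2, LEA3 lay below COR15B and AT2G23120. COR15A had 1520 CPM in Shigu-2, 705 in Altenb-2, 1123 in Kly-1 and 763 in Vash-1, and SAG21 had 398, 282, 397 and 246, with no call for either.

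**Figure D5:**
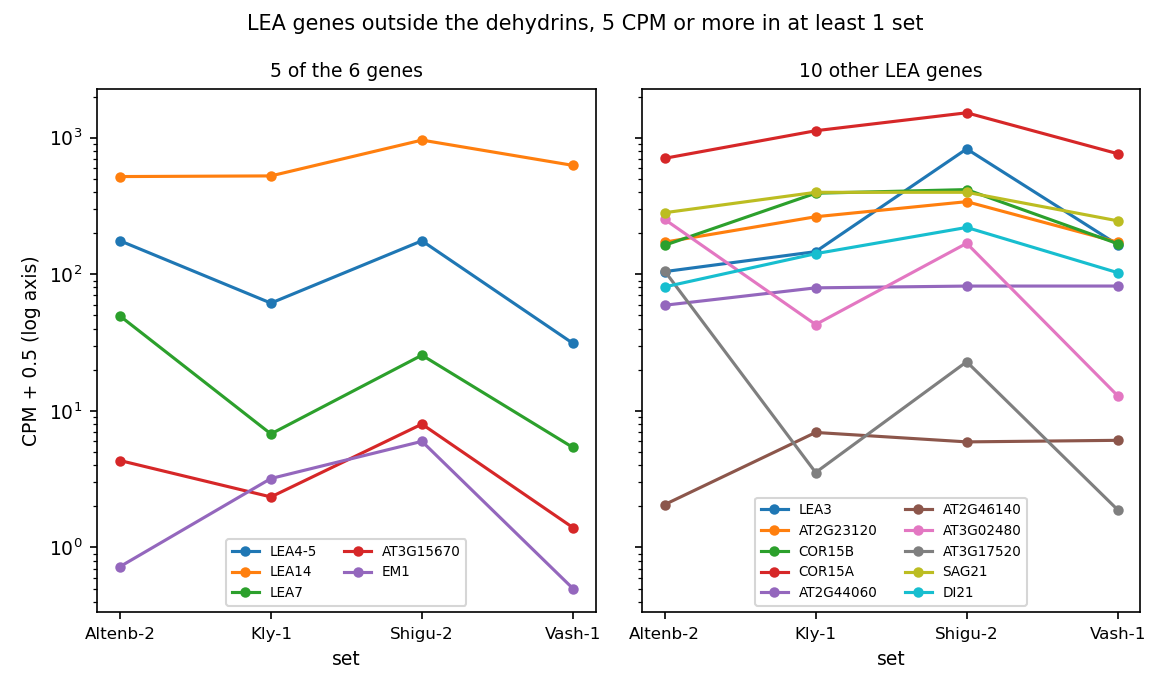
Levels of 5 of the 6 genes (left; EM6 is under 5 CPM) and of the 10 other LEA genes with 5 CPM or more (right), as CPM + 0.5 on a log axis, by set; lines join the values of a gene and imply no order of the sets. AT3G02480 and AT3G17520 have the zigzag of LEA4-5 and LEA7, high in Altenb-2 and Shigu-2, and COR15A, COR15B and SAG21 do not.

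Genes with the most similar profiles were found by the root mean square (RMS) difference of log2(CPM + 0.5), centred on each gene's mean, over the 4 sets and 14769 genes. With 4 points, such likeness is a description only. The nearest to LEA4-5 was LTI65 (RD29B), an ABA-induced desiccation gene, at 0.11, with 319 CPM in Shigu-2, 263 in Altenb-2, 94.0 in Kly-1 and 47.0 in Vash-1. AT2G41190 and AT5G15500 followed, both at 0.13. For LEA7 the nearest were AT3G56275, annotated as a transcribed pseudogene, at 0.29, AT1G55450 at 0.30 and AT2G41190 at 0.43. For AT3G15670 they were AT4G01985 and AT5G24600, both at 0.21, and AT1G21790 at 0.23. For EM1 they were AT1G53100 at 0.21, AT1G35710 at 0.28 and AT3G47580 at 0.32. Among the 6 genes themselves, LEA4-5 was 0.36 from AT3G15670 and 0.49 from LEA7, but 1.01 from LEA14 and 1.39 from EM1.

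The dehydrins and the cold and ABA effectors give the setting of these values. Of 10 dehydrins, 6 reached 5 CPM. In Altenb-2, 1 was called higher, in Kly-1 1 lower, in Shigu-2 3 higher and in Vash-1 2 lower. RAB18, the ABA-induced dehydrin, had 290 CPM in Shigu-2, 247 in Altenb-2, 55.3 in Kly-1 and 58.4 in Vash-1, called in all 4 sets. COR47 and LTI30, dehydrins of cold acclimation, were called higher in Shigu-2, at 2025 and 2085 CPM. LTI30 was called lower in Vash-1, at 450 CPM. Dehydrin AT1G54410, the most abundant on average beside LTI30 and COR47, had 1448 to 2069 CPM and no call. Among 8 cold and ABA effectors, 4 were higher in Shigu-2 and 4 lower in Vash-1, and Altenb-2 had 2 higher and 1 lower and Kly-1 1 lower. LTI65, RAB18, LTI30 and KIN1, a small hydrophilic cold-induced protein, were both the 4 in Shigu-2 and the 4 in Vash-1. RAB18 and LTI30 are also counted among the dehydrins above, and COR15A and COR15B among the other LEA genes. The counts of these lists are thus not independent of each other. Over all genes, 3.76% were higher in Shigu-2 and 4.24% lower in Vash-1. KIN1 had 766 CPM in Shigu-2, 455 in Altenb-2, 579 in Kly-1 and 170 in Vash-1. Its tandem neighbour KIN2, whose similar sequence makes the split of tags between the pair uncertain, had 2888, 1054, 2443 and 1822 CPM and was called lower in Altenb-2. LTI78 (RD29A), which lies beside LTI65, had 1333 to 2677 CPM and no call.

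Transcription factors known to act on LEA genes were low or gave few calls. None of 9 regulators of seed maturation reached 5 CPM. ABI5, a bZIP activator of EM1 and EM6, was the most abundant, with 2.52 to 3.65 CPM, while LEC1, its relative NF-YB6, LEC2 and FUS3 had no listed cluster, and ABI3 had 6 tags in Altenb-2 only. EEL and ABI4 did not exceed 0.571 CPM. The 3 repressors of the seed programme, HSI2, HSL1 and PKL, were listed in every set at 13.1 to 31.4 CPM with no call. Of the 5 ABA-response bZIP factors, ABF1, ABF2, ABF3 and ABF4 lay between 18.1 and 38.8 CPM with no call. AREB3, counted like every gene over its whole length, was called higher in Altenb-2, with 70.8 CPM against 13.1 in Shigu-2, 12.1 in Kly-1 and 11.7 in Vash-1.

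Markers of other tissues were checked beside these levels. Seed storage and oil body genes, 9 in all, summed to 1.32 CPM in Shigu-2, 1.42 in Altenb-2, 0 in Kly-1 and 4.56 in Vash-1. They were highest in Vash-1, the set in which EM1 was not listed, and none reached 5 CPM. Their part in the levels of EM1 was not tested. Of the 9, CRU2 and SESA4 had no listed cluster in any set. The 6 root markers summed to 3.28 to 6.20 CPM, with EXPA7 unlisted, so the label of aerial parts was not contradicted. The 5 leaf markers summed to between 51271 CPM in Shigu-2 and 80973 CPM in Altenb-2, and RBCS1A lay at 17277 to 20308 CPM. The leaf sum was thus lowest in Shigu-2, where 4 of the 6 LEA genes were called higher, and its part in that result was not tested. LHCB3 was called lower in Shigu-2. RBCS1B, which has near-identical copies, ranged from 12.3 CPM in Shigu-2 to 1598 CPM in Kly-1 and is uncertain.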

How the data were processed

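CAGE tags were counted per start site cluster. The cluster counts are raw whole numbers that the authors deposited without normalization, and the peak ratio they deposited is the fraction of a cluster's tags at its peak. STAR 2.7.9a is the tool that the submitters' processing notes name. Build, clustering rule and filters: not given in the sources used here. Coordinates were compared with TAIR10.1: peaks fell on a pyrimidine-purine step in 70.8% of cases, against 7.67 and 2.93% when shifted by 1 bp either way and 19.99% by 50 bp. The labels mention no molecular identifiers, and PCR copies cannot be separated from independent molecules.

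Clusters within 5000 bp of the nuclear rRNA genes were set aside (40.8 to 54.6% of a set's tags). Of 317183 clusters, 316778 were used, and 81 belong to the 6 genes. A cluster peaking in the windows of overlapping genes counted for each. A planned test of treatment with edgeR could not be run, because the table has no library columns. Ratios carry exact binomial intervals and counts exact Poisson intervals, at 95%. Scripts were tested on simulated data. Genes named beside the 6 were those called 2-fold in each list (at most 10 LEA genes and 5 of other lists), the 3 most abundant, and the 3 nearest profiles. The genes, lists and tests were chosen with earlier results of these data known. Python 3.11.15, numpy 2.4.6, pandas 2.3.3 and scipy 1.17.1 were used.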

Additional observations from a re-analysis of the deposited data

Results flagged for a closer look

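Tags on the opposite strand were found inside 4 of the 6 genes, in data that the comparisons do not use. The share of all genes with such tags was not computed, so whether 4 of 6 is unusual cannot be said. Inside LEA14 the opposite-strand tags numbered 109 in Shigu-2, 51 in Kly-1 and 14 in Vash-1, with none listed in Altenb-2. Most began at chr1:172310 and chr1:172340, both in coding sequence. Inside EM1 there were 21 antisense tags in Shigu-2, 57 in Altenb-2, 6 in Kly-1 and 15 in Vash-1, led by chr3:19215397 in all but Kly-1, also in coding sequence. In Altenb-2 these outnumbered the 5 sense tags, and in Vash-1 no sense cluster was listed. EM6 had 7 antisense tags in Altenb-2 and 5 in Kly-1, where no sense cluster was listed, but none in Vash-1, where no sense cluster was listed either. AT3G15670 had 5 in Altenb-2. LEA4-5 and LEA7 had none listed. There are no control samples for this signal. A listed cluster needs 5 tags, so the values of 5 to 8 lie at that limit.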

How the results depend on the processing

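No called difference of the 6 genes changed direction under 12 alternatives. The difference of LEA14 in Vash-1, −0.029 and not called, became 0.020 with the median of ratios and 0.014 with tags at the peak position only, and the differences of EM6, also not called, became 0 with clusters of 10 tags or more. Of 288 recomputed values, 260 kept their call or lack of one, 24 lost a call and 4 gained one. A call was also lost where the difference itself did not shrink but the fold threshold rose or the gene failed the CPM filter. The 7 pairs called higher became 3 at 3-fold and 4 when genes needed 20 CPM, and the 6 called lower became 3 with the rRNA repeats kept and 3 at 20 CPM; at 20 CPM, and for AT3G15670 and EM1 with the repeats kept, the genes no longer pass the filter by construction. With the repeats kept, LEA14 in Shigu-2 was called at 1.06. Scaling by the median of ratios moved the median of all genes by 0.14 in Altenb-2 and −0.16 in Shigu-2, and keeping the repeats by 0.26 in Shigu-2, −0.23 in Altenb-2, 0.15 in Kly-1 and −0.18 in Vash-1. With the repeats kept, 6.57% of genes were higher and 2.20% lower in Shigu-2, against 3.76 and 3.67% otherwise. With a pseudocount of 1, EM1 in Kly-1 fell to 0.89, and with the repeats kept to 0.94. With tags at the peak position only, EM1 did not pass the filter and lost its 4 calls. No paired analysis was possible because the table has no replicate columns, and for the same reason no replicate could be left out. Depth limits EM1, EM6 and AT3G15670, which have 0 to 279 tags in a set.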

Other observations

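A few LEA genes outside the comparison, singled out after their values were seen, are given by their values. M17 (AT2G41260), a seed LEA gene, had 51 tags in Vash-1 (2.08 CPM) and no listed cluster in the other 3 sets. XERO1, a dehydrin, was likewise highest there, with 42 tags against 13 in Altenb-2, 12 in Shigu-2 and none listed in Kly-1. The storage protein gene CRU3 had 51 tags in Vash-1 and 14 in Shigu-2, and EM1 had no listed cluster in Vash-1. Other genes of the same lists went the other way. M10 had 10 tags in Altenb-2, 12 in Kly-1 and 9 in Shigu-2, but no listed cluster in Vash-1. The dehydrin AT4G39130 was highest in Altenb-2, with 69 tags against 41 in Vash-1. The oil body gene OLEO2 was listed in Shigu-2 only, with 17 tags. LEA18 (AT2G35300), another small group 4 gene, stayed just under 5 CPM, with 4.03 CPM in Shigu-2, 4.94 in Altenb-2, 0.512 in Kly-1 and 0.897 in Vash-1, so Altenb-2 and Shigu-2 were its high sets, as for LEA4-5. AtLEA4-1 (AT1G32560), of the same group by its name, had 0.967 CPM in Shigu-2, 0.312 in Altenb-2, 0.205 in Kly-1 and 0.408 in Vash-1. In that gene Altenb-2, with 7 tags, lay below Vash-1, with 10. These values have no replicate check.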
